A study of Mus musculus with 20 samples.

Results

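The subject is the machinery that loads very-low-density lipoprotein (VLDL) with lipid and carries it out of the endoplasmic reticulum (ER), as 10 genes chosen by name: *Mttp*, *P4hb*, *Tm6sf2*, *Pla2g12b*, *Sar1a*, *Sar1b*, *Surf4*, *Mia2*, *Mia3* and *Sort1*. All 10 are among the 50559 genes of the count table, and all 10 passed the filter on low counts in every comparison. RNA-seq had been done on 20 livers of mice homozygous for a floxed *Cideb* allele, 5 livers in each of 4 groups. WT livers had received AAV-TBG-GFP and KO livers AAV-TBG-Cre, an adeno-associated virus whose TBG promoter is active in hepatocytes, so all 4 groups carried the floxed allele and a virus, and cells other than hepatocytes were not meant to lose *Cideb*. *Cideb* encodes a lipid droplet protein of hepatocytes. Each vector group was fed either Western diet (WD) or CDA-HFD, a high-fat diet without choline and with defined amino acids, which are both used to cause fatty liver. The labels give 3 months for either diet, while the study's text gives a longer time for WD. They give no age or sex. Diet and time on the diet therefore cannot be told apart.

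VLDL is built around apolipoprotein B in the ER of the hepatocyte. The microsomal triglyceride transfer protein, a dimer of the large subunit encoded by *Mttp* and the protein disulfide isomerase encoded by *P4hb*, moves lipid onto apolipoprotein B as it is made, and TM6SF2 and PLA2G12B act in the ER to add more lipid to the particle. The particle is too large for a standard transport vesicle. The GTPases SAR1A and SAR1B start the COPII coat at ER exit sites, SURF4 binds lipoproteins as a cargo receptor, and the proteins of *Mia2* (TALI and cTAGE5) and *Mia3* (TANGO1) link bulky cargo to the coat. Sortilin, encoded by *Sort1*, binds apolipoprotein B beyond the ER.

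Each liver had 11697049 to 16827147 reads assigned to genes. *Cideb* had 52 to 100 reads in WT livers on WD and 35 to 60 on CDA-HFD, against 0 to 6 in the 10 KO livers. It shares 76.3% of its exon bases with *Nop9*, which is read from the other strand. How reads in the shared bases were counted is not known, so the level of *Cideb* is uncertain. Hepatocyte markers were high in every liver, with a sum of 30993 to 99253 CPM, the counts scaled to a common library size, over 10 markers. Liver 5 of the KO CDA-HFD group stood apart from its group. Along the main axis of a principal component analysis of the 10 CDA-HFD livers, which held 66.9% of the variance, it scored -27.4, the WT livers -46.7 to -4.68 and the other KO livers 30.7 to 45.7, while its *Cideb* count was 1 read. The calls, ratios and list counts that include it are also given without it where that moves them. It was singled out by its likeness to WT livers in these same data, so leaving it out favors a larger KO difference on CDA-HFD. Values and p-values without it are therefore a description and add no support to a KO difference. These are whole livers, so fewer cells of a type and less RNA per cell cannot be told apart.

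RefSeq (GRCm38.p6) gave promoter windows for *Mttp*, *P4hb*, *Pla2g12b*, *Sar1a*, *Sar1b*, *Surf4*, *Mia2* and *Mia3*, but not for *Tm6sf2* and *Sort1*. The 250 bases before the start site are printed for *Mttp* and *Sar1b*, the 2 genes that passed the test in both diet comparisons, for *Sar1a*, the paralog of *Sar1b* that passed in none, and for the first of 3 windows of *Mia2*. They lie at chr3:138143419-138143668 on the minus strand for *Mttp*, and on the plus strand at chr11:51763413-51763662 for *Sar1b*, chr10:61680035-61680284 for *Sar1a* and chr12:59095341-59095590 for *Mia2*. The *Mttp* window belongs to the start near that of the transcript Mttp-202, 12011 bases upstream of the start of Mttp-201. Capitals mark the words CCAAT and CCACG on either strand.
Mttp: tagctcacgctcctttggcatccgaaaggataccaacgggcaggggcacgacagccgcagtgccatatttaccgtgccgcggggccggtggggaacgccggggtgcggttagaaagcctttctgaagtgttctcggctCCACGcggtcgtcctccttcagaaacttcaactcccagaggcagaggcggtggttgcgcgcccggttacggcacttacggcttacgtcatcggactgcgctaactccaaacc
Sar1b: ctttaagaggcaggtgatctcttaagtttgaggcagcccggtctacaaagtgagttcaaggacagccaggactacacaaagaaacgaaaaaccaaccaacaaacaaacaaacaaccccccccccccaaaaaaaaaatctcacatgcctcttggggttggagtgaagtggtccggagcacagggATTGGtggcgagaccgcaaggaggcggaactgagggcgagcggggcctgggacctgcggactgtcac
Sar1a: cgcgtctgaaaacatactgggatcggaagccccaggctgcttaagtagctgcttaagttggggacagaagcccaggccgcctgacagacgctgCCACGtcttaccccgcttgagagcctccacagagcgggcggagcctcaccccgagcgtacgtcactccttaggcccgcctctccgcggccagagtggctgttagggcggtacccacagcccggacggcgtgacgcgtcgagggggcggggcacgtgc
Mia2: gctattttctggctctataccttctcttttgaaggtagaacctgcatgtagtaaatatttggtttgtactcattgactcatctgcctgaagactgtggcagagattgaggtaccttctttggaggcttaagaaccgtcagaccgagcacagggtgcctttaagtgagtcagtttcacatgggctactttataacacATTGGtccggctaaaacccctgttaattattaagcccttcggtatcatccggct

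The 4 windows differ in base composition and share few of these words. GC content was 61.2% for *Mttp*, 54.0% for *Sar1b*, 66.4% for *Sar1a* and 44.0% for *Mia2*. CCACG, the core of an ER stress element, was found at position -112 in *Mttp* and -157 in *Sar1a*, counted from the start site, and CCAAT at -67 in *Sar1b* and -54 in *Mia2*. Of 32851 mouse windows of the same length, 33.8% held CCAAT and 28.3% held CCACG. The words CAAAGTCCA for HNF4, GTAAACA for FOXO and TGACGTGG for XBP1 were found on neither strand in any member's window, against 0.384%, 3.17% and 0.563% of all windows. The bases before the start of Mttp-201 were not in the *Mttp* window and were not searched. The words do not overlap one another in the windows printed.

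The 10 genes spanned a wide range of levels. Per kilobase of annotated exon and in WT livers on WD, *P4hb* was highest at 581 ± 54.3 CPM per kb (SD, n = 5), followed by *Sar1b* at 139 ± 13.6, *Surf4* at 88.2 ± 5.83, *Mttp* at 81.0 ± 5.85, *Mia3* at 80.9 ± 7.75, *Mia2* at 46.0 ± 3.78, *Sar1a* at 25.3 ± 1.07, *Pla2g12b* at 23.2 ± 1.59, *Tm6sf2* at 10.4 ± 2.57 and *Sort1* at 2.53 ± 1.09. Only the neighbors *Surf4*, *Mttp* and *Mia3* in that order had overlapping ranges. KO livers on WD kept the order, with *Sar1a* and *Pla2g12b* overlapping as well. In WT livers on CDA-HFD *Sar1b* dropped to the fourth place at 59.4 ± 5.32 CPM per kb, with a range that overlapped that of *Mia3* above it, and *Sort1* at 9.48 ± 1.70 stood above *Tm6sf2*, the lowest of the 10. The exon length of *Mia2* is the union of 23 annotated transcripts, so its level per kb is a low estimate. No run of 50 bases is shared between annotated transcripts of *Sar1a* and *Sar1b*. Exon bases shared with a gene on the opposite strand made up 9.49% of *Mttp* (*Gm43691* and *Trmt10a*), 4.39% of *Surf4* (*Surf2*) and 4.47% of *Sort1* (*Gm12523*), and whether the counting used the strand is not known.

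**Figure D1:**
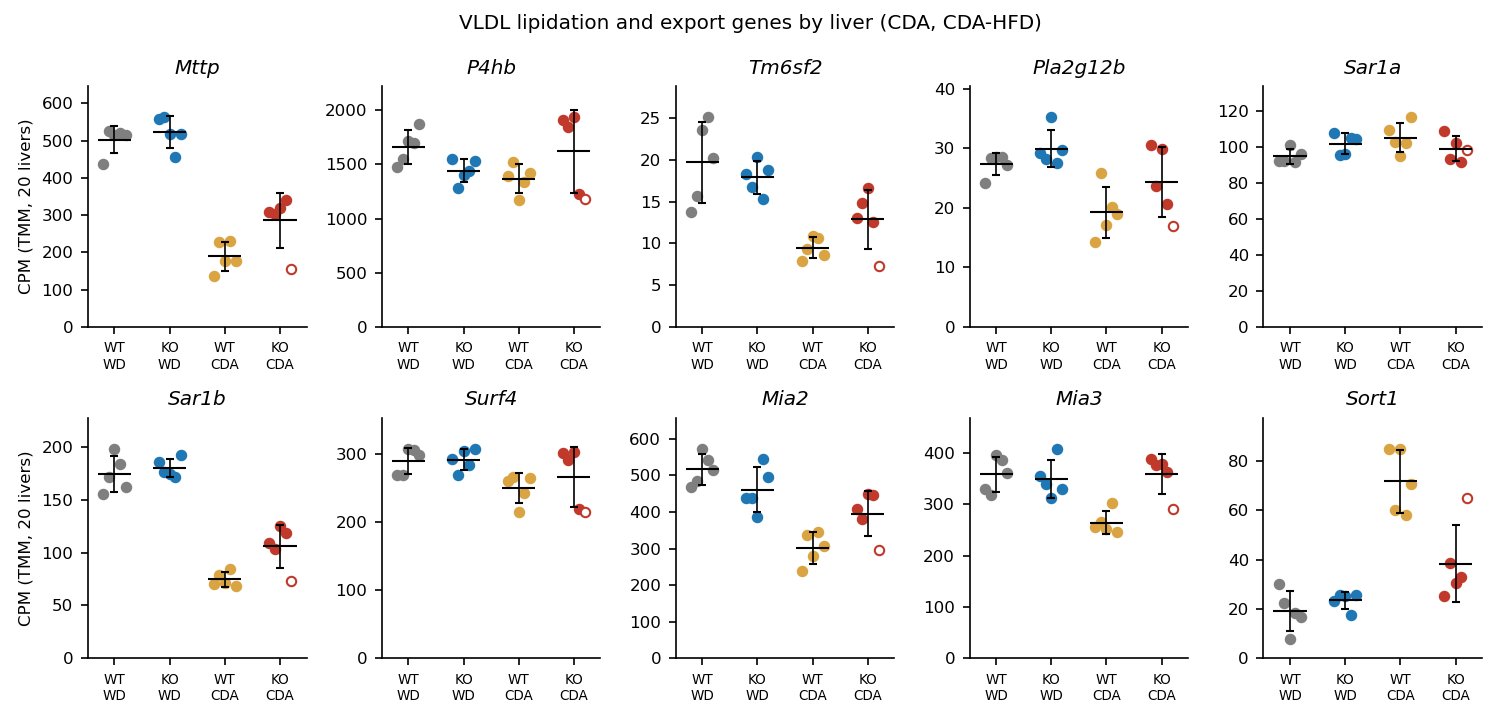
Each panel plots a gene's CPM in the 20 livers by group (y axis, CPM scaled by TMM over 20 livers), with the mean and SD as lines and CDA standing for CDA-HFD. The open point is KO CDA-HFD liver 5. The WT CDA-HFD livers lie below all WT WD livers for *Mttp*, *Tm6sf2*, *Sar1b*, *Surf4*, *Mia2* and *Mia3* and above them for *Sort1*.

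Whether loss of *Cideb* changes the machinery was asked on each diet, and the diets were compared within each vector group. On WD, 0 of the 10 genes passed an adjusted p of 0.05 between KO and WT livers (edgeR quasi-likelihood F test), where 0.0757% of all 15848 genes tested did. The count was also 0 at an unadjusted p under 0.05, where 10.7% of all genes passed, and with DESeq2, where 1.03% did. By the exact permutation test of log2 CPM, which is not adjusted for the number of genes, *P4hb* alone of the 10 had a p under 0.05 there (p = 0.0397). The log2 fold changes ran from -0.20 for *P4hb* to 0.30 for *Sort1*, and 0 of 10 genes had groups that did not overlap, against 2.22% of all genes. On CDA-HFD 3 of 10 passed, against 15.5% of 17204 genes: *Sar1b* and *Mia3* were higher in KO livers (8.19% of all genes rose) and *Sort1* was lower (7.29% fell). No gene of the 10 separated the groups fully there, against 9.57% of all genes. The median log2 fold change of the 10 was 0.36, that of all genes 0.00499.

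More of the 10 genes passed between the diets in WT than in KO livers, a difference that is tested itself further on. In WT livers 7 of 10 genes passed, against 51.1% of 16726 genes: *Mttp*, *Tm6sf2*, *Pla2g12b*, *Sar1b*, *Mia2* and *Mia3* were lower on CDA-HFD than on WD (25.2% of all genes fell), and *Sort1* was higher (25.9% rose). The groups did not overlap for 7 genes (37.1% of all genes), which were those called except *Pla2g12b*, together with *Surf4*. In KO livers 2 of 10 passed, *Mttp* and *Sar1b*, both lower on CDA-HFD, against 17.0% of 16387 genes in either direction, 7.85% lower and 9.19% higher. They were also the 2 genes without overlap there, against 15.2% of all genes. The median over the 10 genes was -0.48 in WT and -0.18 in KO livers on the log2 scale, with -0.00316 and 0.00326 over all genes. The comparison of KO with WT livers on CDA-HFD and that of the diets in WT livers share the 5 WT CDA-HFD livers, so their opposite signs are not independent.

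**Figure D2:**
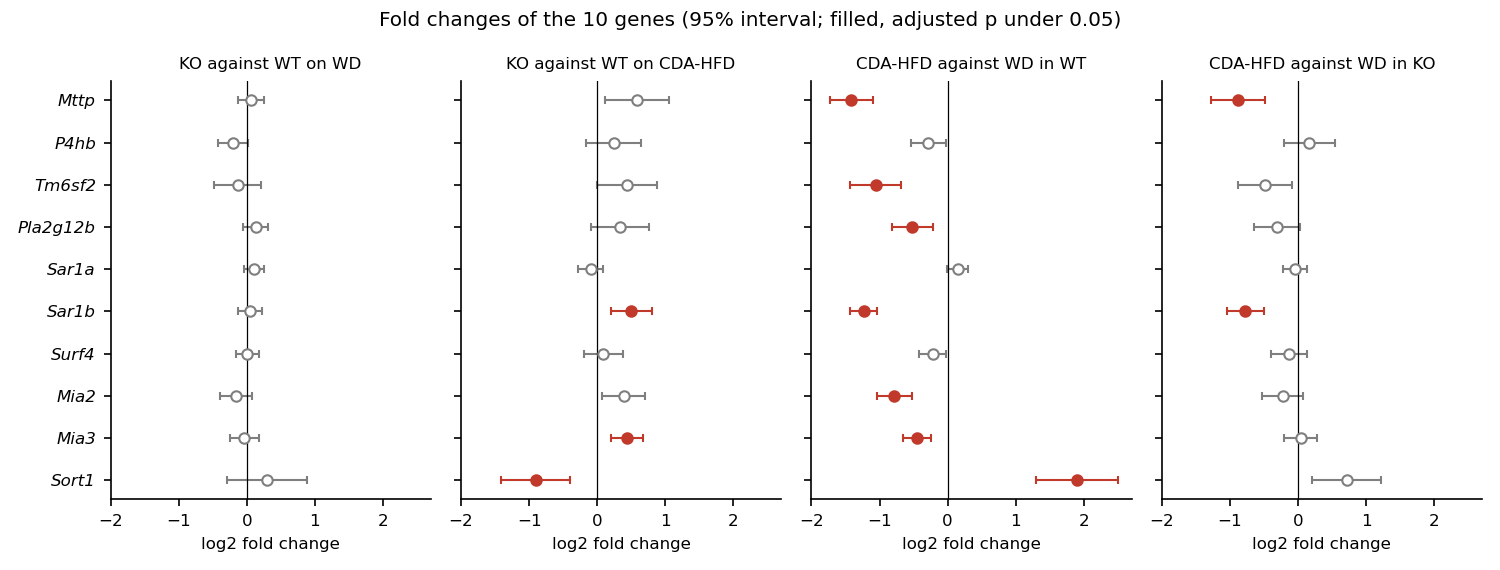
Log2 fold change of each gene (x axis) with its 95% interval in the 4 comparisons, filled where the adjusted p was under 0.05. On WD all 10 intervals cross 0, while in WT livers the diet comparison has 7 filled points and runs from -1.42 for *Mttp* to 1.90 for *Sort1*.

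*Mttp*, the lipid transfer subunit, was at 438, 524, 514, 520.1 and 516 CPM in WT livers on WD and at 558, 562, 519, 457 and 517 in KO livers on WD. Under CDA-HFD the WT livers had 137, 227, 175, 231 and 177 CPM and the KO livers 308, 302, 319, 341 and 156. Every CDA-HFD liver was below every WD liver of the same vector, and 4 of 5 KO livers on CDA-HFD were above all WT livers. The diet difference was -1.42 (standard error 0.14, adjusted p = 2.61e-05) in WT and -0.88 (standard error 0.18, adjusted p = 0.00909) in KO livers on the log2 scale, each with an exact permutation p of 0.00794, the smallest that 5 livers against 5 allow. On CDA-HFD *Mttp* was 0.59 higher in KO livers on the log2 scale, which missed the threshold (adjusted p = 0.0822, exact permutation p = 0.0635). Without KO liver 5, singled out by its likeness to WT livers, the difference was 0.74 (adjusted p = 0.00264).

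*P4hb*, whose product also serves as a general oxidoreductase of the ER, had a smaller diet difference in WT livers than its partner. It was at 1475 to 1873 CPM in WT and 1284 to 1551 CPM in KO livers of the WD arm, and at 1173 to 1525 and 1185 to 1935 CPM on CDA-HFD. None of its 4 pairwise differences passed after adjustment in edgeR. The diet difference in WT livers was -0.29 (adjusted p = 0.0609, exact permutation p = 0.0159), with an adjusted p of 0.0062 from DESeq2, and turned to 0.14 when libraries were scaled by their size only. On WD the KO difference was -0.20 (adjusted p = 0.492, exact permutation p = 0.0397). On CDA-HFD it was 0.24 (adjusted p = 0.364), where *Mttp* had 0.59. Between the diets in KO livers *P4hb* was at 0.16 (adjusted p = 0.547) and *Mttp* at -0.88. The ratio of *Mttp* to *P4hb* reads within a liver, which needs no scaling, was 0.303 ± 0.0228 in WT and 0.364 ± 0.0457 in KO livers on WD, and 0.139 ± 0.0285 and 0.180 ± 0.0565 on CDA-HFD (SD, n = 5). The highest CDA-HFD value in WT livers, 0.173, lay below the lowest WD value, 0.276. On CDA-HFD, KO liver 4 had a ratio of 0.278. The other KO livers had 0.132 to 0.165, inside the WT range of 0.0980 to 0.173. *Apob*, the structural protein of the particle, was the other denominator, with 0.0219 to 0.0234 *Mttp* reads per *Apob* read in WT livers on WD and 0.0117 to 0.0145 on CDA-HFD.

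The other lipidation genes were low in level. *Tm6sf2* was at 13.8 to 25.1 CPM in WT and 15.3 to 20.4 CPM in KO livers on WD. Under CDA-HFD it was at 7.88 to 10.9 CPM in WT livers, all below the WD range, and at 7.26 to 16.6 CPM in KO livers. It fell by 1.06 on the log2 scale between the diets in WT livers (adjusted p = 0.00038), and the KO difference on CDA-HFD, 0.43, missed the threshold (adjusted p = 0.147). *Pla2g12b* was at 24.2 to 28.6 CPM in WT livers on WD and 14.2 to 25.8 on CDA-HFD, a difference of -0.52 (adjusted p = 0.00827) whose call was lost with library size only, at -0.10. In KO livers it was at 27.5 to 35.2 CPM on WD and 17.0 to 30.5 on CDA-HFD, and that difference of -0.30 did not pass (adjusted p = 0.191), nor did the -0.20 without liver 5 (adjusted p = 0.318).

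The paralogous COPII GTPases differed. *Sar1b* was at 156, 171, 198, 184 and 162 CPM in WT livers on WD and at 186, 176, 175, 172 and 193 CPM in KO livers on WD. Under CDA-HFD it was at 70.7, 79.0, 71.1, 84.1 and 68.1 CPM in WT livers and at 109.5, 103, 125, 119 and 73.0 CPM in KO livers. Each CDA-HFD liver was below each WD liver of its vector group. The diet difference was -1.23 (standard error 0.09, adjusted p = 5.77e-06) in WT and -0.77 (standard error 0.13, adjusted p = 0.00265) in KO livers. On CDA-HFD *Sar1b* was 0.50 higher in KO livers (standard error 0.14, adjusted p = 0.0348, exact permutation p = 0.0238), with 4 of 5 KO livers above all WT livers. Without KO liver 5 that difference was 0.61 (adjusted p = 0.000671).

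*Sar1a* stayed between 91.7 and 116 CPM in all 20 livers and passed the threshold in no comparison of the main edgeR fits. Its diet difference in WT livers was 0.14, with a 95% interval from -0.01 to 0.30 on the log2 scale, and with library size only it was 0.57 (adjusted p = 0.000322). The exact permutation p was 0.0238, and 4 of 5 WT CDA-HFD livers were above all WT WD livers. Over 8 alternative settings, that permutation test among them, p was under 0.05 in 3. The ratio of *Sar1b* to *Sar1a* reads within a liver, free of scaling, was 1.84 ± 0.146 in WT and 1.77 ± 0.0910 in KO livers on WD, and 0.714 ± 0.0968 in WT and 1.07 ± 0.217 in KO livers on CDA-HFD (SD, n = 5). The WD livers had at least 1.64 and the CDA-HFD livers at most 1.30. Without liver 5 the KO CDA-HFD ratio was 1.16 ± 0.128 (SD, n = 4), and the *Mttp* to *P4hb* ratio 0.192 ± 0.0574, with liver 4 at 0.278 and the others at most at 0.165. KO liver 5 had a *Sar1b* to *Sar1a* ratio of 0.741, inside the WT range of 0.585 to 0.824, and the other KO livers had 1.01 to 1.30.

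**Figure D3:**
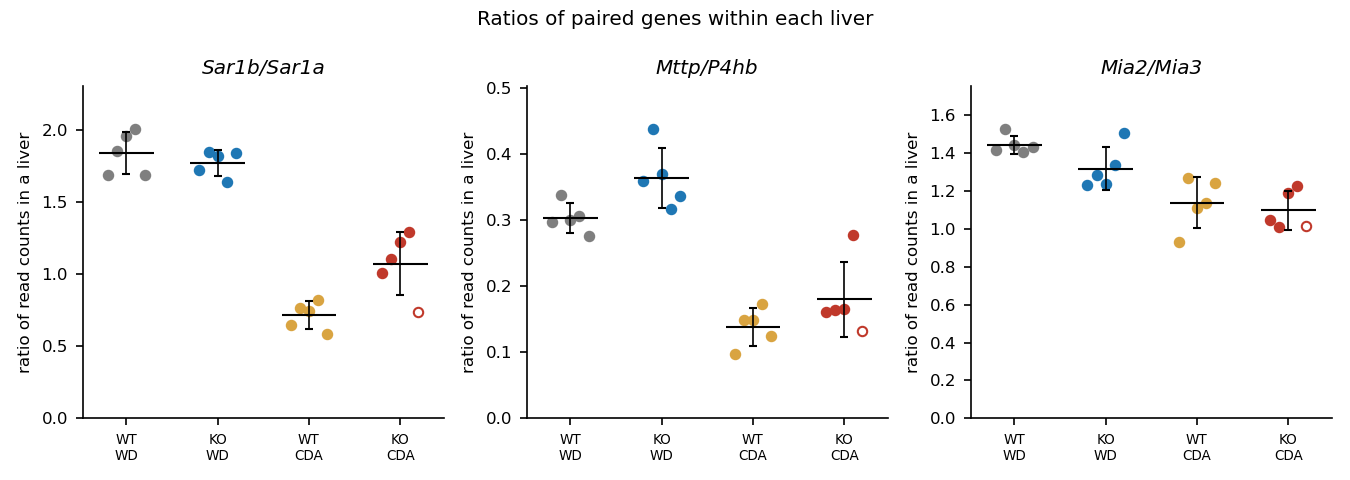
Ratio of *Sar1b* to *Sar1a*, *Mttp* to *P4hb* and *Mia2* to *Mia3* reads within a liver (y axis) by group, where CDA stands for CDA-HFD, with mean and SD. The open point is KO CDA-HFD liver 5. *Sar1b*/*Sar1a* runs from 1.64 to 2.01 on WD and from 0.585 to 1.30 on CDA-HFD.

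Among the cargo receptors, *Mia3*, which anchors bulky cargo at ER exit sites, was at 330.3, 318, 397, 387 and 360.4 CPM in WT livers on WD and at 355, 340.4, 312, 408 and 329 CPM in KO livers on WD. Under CDA-HFD it was at 255, 265, 252.5, 303 and 247 CPM in WT livers and at 389, 376, 378, 363 and 291 CPM in KO livers. The WT CDA-HFD livers were below all WT WD livers, while 4 of 5 KO CDA-HFD livers lay within the range of the KO WD livers. *Mia3* was 0.44 higher in KO livers on CDA-HFD (standard error 0.11, adjusted p = 0.0265, exact permutation p = 0.0159) and 0.51 higher without liver 5 (adjusted p = 0.00193). Between the diets it was -0.45 in WT livers (adjusted p = 0.00223) and 0.04 in KO livers (adjusted p = 0.854). The WT difference shrank to -0.02 with library size only (adjusted p = 0.809).

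*Mia2* is expressed mainly in liver and gut in its long form. It was at 467, 485, 572, 543 and 516 CPM in WT livers on WD and at 238, 336, 281, 345 and 306 CPM on CDA-HFD, without overlap, and fell by 0.78 on the log2 scale (adjusted p = 0.000223). The KO livers had 438, 437, 385, 545 and 495 CPM on WD and 407, 379.8, 449, 445 and 297 CPM on CDA-HFD, which overlapped, and their difference of -0.23 did not pass (adjusted p = 0.275), nor did the -0.14 without liver 5 (adjusted p = 0.434). On CDA-HFD the KO difference was 0.39 (adjusted p = 0.087, exact permutation p = 0.0397), and 0.48 without liver 5 (adjusted p = 0.0106). *Surf4* was at 269 to 307 CPM in WT livers on WD and 214 to 266 CPM on CDA-HFD. That difference of -0.22 missed the threshold (adjusted p = 0.0532, exact permutation p = 0.00794), passed it with DESeq2 and was 0.21 with library size only. In KO livers *Surf4* was at 269 to 307 CPM on WD and 215 to 302 CPM on CDA-HFD. The ratio of *Mia2* to *Mia3* reads was 1.44 ± 0.0482 and 1.32 ± 0.112 in WT and KO livers on WD and 1.14 ± 0.133 and 1.10 ± 0.102 on CDA-HFD (SD, n = 5).

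*Sort1* was the member of the 10 that passed as higher on CDA-HFD in WT livers and as lower in KO livers on CDA-HFD. It was at 30.2, 22.5, 7.64, 18.5 and 16.9 CPM in WT livers on WD and at 23.2, 25.6, 25.3, 17.6 and 25.6 CPM in KO livers on WD. Under CDA-HFD the WT livers had 84.8, 60.3, 84.9, 58.1 and 70.6 CPM and the KO livers 25.4, 38.5, 30.5, 32.8 and 65.0 CPM. In WT livers it was 1.90 higher on CDA-HFD on the log2 scale (standard error 0.28, adjusted p = 0.000195), and in KO livers 0.71, which missed the threshold (adjusted p = 0.0558). The exact permutation p of that diet difference in KO livers was 0.0238. Over 8 alternative settings, the permutation test among them, p was under 0.05 in 4. Without liver 5 the KO value was 0.43 (adjusted p = 0.0553). KO livers on CDA-HFD were 0.91 lower than WT livers (standard error 0.23, adjusted p = 0.028, exact permutation p = 0.0238), and 1.18 lower without liver 5, where the log2 fold change was -1.18 (adjusted p = 0.000295). With 4 of 5 KO livers below all WT livers, liver 5 was the exception.

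Markers of other cells moved with these groups. The 10 macrophage markers summed to 408 to 1283 CPM in WT and 336 to 648 CPM in KO livers on WD, and to 1820 to 3750 CPM in WT and 629 to 2144 CPM in KO livers on CDA-HFD. The highest KO value was that of liver 5, where *Sort1* was also highest among KO livers. Of the 10 markers, 6 rose and 1 fell in WT livers and 5 rose in KO livers between WD and CDA-HFD, and 4 fell in KO against WT livers on CDA-HFD. The 10 stellate cell and fibroblast markers summed to 410 to 1018 CPM in WT livers on WD, 371 to 997 CPM in KO livers on WD, 2036 to 3536 CPM in WT livers on CDA-HFD and 933 to 3638 CPM in KO livers on CDA-HFD. The 8 cholangiocyte markers summed to 43.2 to 181, 50.7 to 95.6, 384 to 821 and 85.1 to 677 CPM in the same order of groups. No marker was at 0 in all livers of a group. The part of these cells in the *Sort1* values was not tested.

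The 10 hepatocyte markers summed to 57248 to 99253 CPM in WT and 68516 to 85832 CPM in KO livers on WD, and to 30993 to 68472 CPM in WT livers on CDA-HFD. The KO livers on CDA-HFD ran from 69264 to 98978 CPM, except liver 5 at 33550 CPM. Of the 10 markers, 6 fell with CDA-HFD in WT livers and 0 passed in KO livers, and 2 rose in KO against WT livers on CDA-HFD. The other 4 KO CDA-HFD livers had 302 to 341 CPM of *Mttp* and 103 to 125 CPM of *Sar1b*, where the lowest WD livers had 438 and 156 CPM. The part of the hepatocyte share in the lower values on CDA-HFD was not tested, in WT or in KO livers. Of the other lists, 8 endothelial markers gave 6 that fell in WT livers with CDA-HFD, at 500 to 600 CPM against 732 to 797 CPM on WD, and 8 lymphocyte and 8 neutrophil markers were at 91.2 CPM or less in sum in every liver, with 4 and 5 of 7 tested higher in that comparison. Of the neutrophil markers 6 of 7 tested fell in KO against WT livers on CDA-HFD, where no cholangiocyte, endothelial or lymphocyte marker passed.

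**Figure D4:**
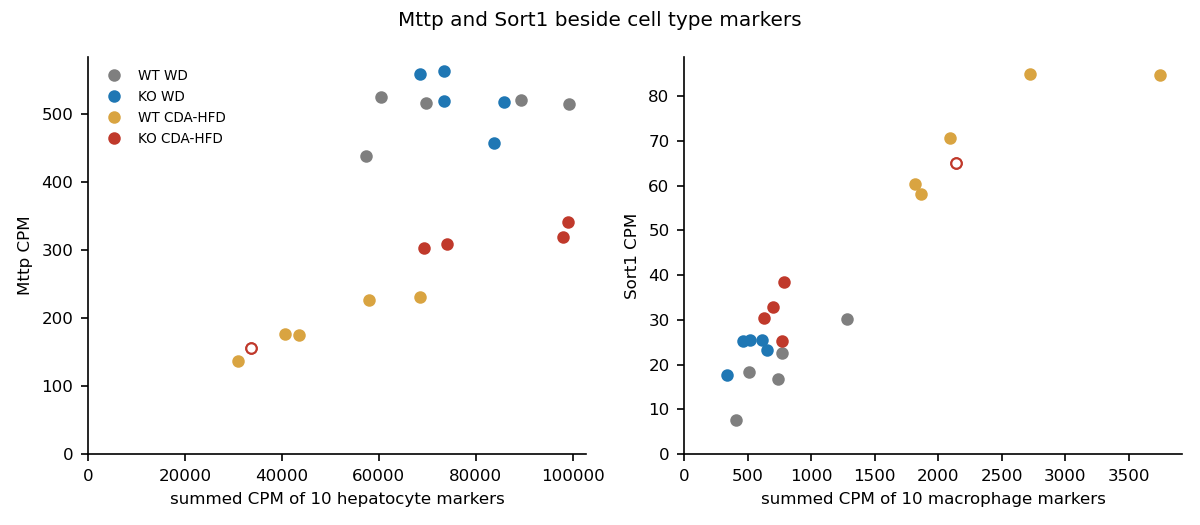
CPM of *Mttp* against the summed CPM of 10 hepatocyte markers (left) and of *Sort1* against the summed CPM of 10 macrophage markers (right), with a point per liver colored by group. The open point, KO CDA-HFD liver 5, lies among the WT CDA-HFD livers in both panels. The other KO CDA-HFD livers have hepatocyte sums of 69264 to 98978 CPM and *Mttp* values of 302 to 341 CPM.

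The calls between KO and WT livers on CDA-HFD changed with the livers included. Without KO liver 5, 6 of 10 genes passed, against 41.4% of 17411 genes tested in that fit, namely *Mttp*, *Tm6sf2*, *Sar1b*, *Mia2*, *Mia3* and *Sort1*. Leaving out WT liver 1, 3 or 5 or KO liver 1, 2 or 3 gave 0, and the genes called over the whole table went from 2664 to between 709 and 1352. Without KO liver 4 the count was 1, *Mia3* (1581 over the whole table). Without WT liver 2 or 4 it was 2 or 3 (2039 or 2538). With library size only it was 0 (1709). Whether the KO difference itself depended on the diet was tested over all 20 livers, and 0 of 10 genes passed, against 0.556% of 17804 genes. At an unadjusted p under 0.05 there were 7 such genes, against 15.4% of all genes, and DESeq2 called 1, *Mia3* (adjusted p = 0.0299), against 2.44% of all genes. The smallest adjusted p was that of *Mia3* (interaction 0.48 on the log2 scale, adjusted p = 0.124), followed by *Mia2* (0.56) and *Sort1* (-1.19), both with an adjusted p of 0.157. Without KO liver 5 the same 6 genes as above passed this test, where 11.9% of 17995 genes did. With all livers in, a dependence of the KO difference on the diet was thus called for none of the 10 genes by edgeR and for *Mia3* by DESeq2.

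The genes around this machinery gave counts that are read against the shares of all genes called: 25.2% lower and 25.9% higher with CDA-HFD in WT livers, 7.85% lower and 9.19% higher in KO livers, and 8.19% higher and 7.29% lower in KO against WT livers on CDA-HFD. Of 21 genes of the COPII coat and its regulators, 12 fell and 0 rose with CDA-HFD in WT livers (median log2 fold change -0.31), 1 fell in KO livers (-0.19), 2 rose in KO against WT livers on CDA-HFD (0.03) and 0 passed on WD (-0.05). *Sec31b*, a form of the outer coat subunit, was -1.21 in WT and -0.60 in KO livers between the diets and 0.71 in KO against WT livers on CDA-HFD, and passed in all 3. *Rab1b*, a GTPase of ER to Golgi transport, was -0.59 and *Sec24a*, a cargo-binding coat subunit, -0.89 in WT livers. *Sec16b*, a scaffold of ER exit sites, was -0.79 between the diets in WT livers and rose by 0.71 in KO against WT livers on CDA-HFD. Of 25 other cargo receptors and SNAREs of the same route, 8 fell and 3 rose in WT livers with the diet (median -0.14), 4 fell in KO livers (-0.17), and on CDA-HFD 2 rose and 1 fell in KO against WT livers (-0.02). The SNARE *Bet1* was -0.99 in WT and -0.76 in KO livers between the diets. The KDEL receptor *Kdelr3* was 1.78 between the diets in WT livers and -1.51 in KO against WT livers on CDA-HFD.

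Of 26 genes of apolipoprotein B and its lipid supply, 14 fell and 1 rose in WT livers with CDA-HFD (median -0.51), and 10 fell in KO livers among 25 tested (-0.22). In KO against WT livers 3 rose and 1 fell on CDA-HFD (0.21), and 1 fell on WD (0.01). The gene that fell in KO livers was *Cideb*, the targeted gene, on both diets. *Pnpla3*, a lipid droplet hydrolase, was -3.44 in WT and -4.08 in KO livers between the diets, *Fitm1*, which acts in droplet formation, -3.03 and -2.09, and *Soat2*, which makes cholesteryl esters, -0.67 and -0.70. *Lpcat3*, which remodels phospholipids of the ER, was -1.14 and -1.07. *Dgat2*, which makes triglyceride, was -1.08 between the diets in WT livers and rose by 0.88 in KO against WT livers on CDA-HFD.

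Of 18 protein disulfide isomerases and ER chaperones in the table, 17 were tested, and 3 rose and 3 fell in WT livers with CDA-HFD (median -0.10), 0 in KO livers (-0.10), and 1, *Dnajb9* at -0.55, fell in KO against WT livers on CDA-HFD (0.10). *Pdia5* was 0.74 and *P4ha1* 0.52 in WT livers between the diets. Of 15 genes of the sortilin family and the later handling of apolipoprotein B, 13 were tested, with 4 higher and 1 lower in WT livers with CDA-HFD (median -0.01), 0 in KO livers (0.04) and 1 lower in KO against WT livers (-0.16). *Sorl1*, a relative of *Sort1*, was 1.41 in WT livers between the diets. *Vps35*, a subunit of the retromer coat, was -0.32 in KO against WT livers on CDA-HFD.

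Of 16 transcription regulators of *Mttp* or of ER export, 12 fell and 1 rose in WT livers with CDA-HFD (median -0.70), 4 fell and 1 rose in KO livers (-0.19), and 4 rose in KO against WT livers on CDA-HFD (0.41). *Foxa2* was -1.56 in WT livers between the diets and 1.61 in KO against WT livers on CDA-HFD, comparisons that share the WT CDA-HFD livers. *Hnf4a*, a hepatocyte regulator, was -0.72 and 0.84 in the same 2 comparisons. *Srebf1*, a regulator of lipid synthesis, was -2.38 in WT and -2.03 in KO livers between the diets, and *Srebf2*, a regulator of cholesterol synthesis, 0.68 and 0.88. *Hnf4a* is also a hepatocyte marker above.

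Without KO liver 5, 19.6% of all genes were higher and 21.8% lower in KO against WT livers on CDA-HFD, and the lists gave more calls there. The count was 5 higher and 0 lower for the COPII coat and 5 and 2 for the other receptors and SNAREs. For apolipoprotein B and its lipid supply, a list that includes the targeted *Cideb*, it was 9 and 3. It was 3 and 1 for the ER chaperones, 1 and 3 for the sortilin list and 7 and 1 for the transcription regulators. Of the markers, 5 of 10 for hepatocytes and 6 of 8 for endothelial cells were then higher, and 7 of 10 for macrophages, 9 of 10 for stellate cells and fibroblasts, 7 of 8 for cholangiocytes and 7 of 7 tested for neutrophils were lower, with 1 macrophage marker higher and 1 of 8 lymphocyte markers lower. Between the diets in KO livers, where 9.03% of all genes were then higher and 8.37% lower, the fit without liver 5 added 2 higher genes to the lipid supply list and 1 to the ER chaperones. It took the stellate cell and fibroblast markers from 3 to 2 higher and the lymphocyte markers from 4 to 2.

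With libraries scaled by size only, the median over all genes shifted by 0.42 in the WT diet comparison, 0.25 in the KO diet comparison, -0.19 in KO against WT livers on CDA-HFD and -0.17 in the interaction. The share of higher genes among those called moved from 50.7% to 85.3%, from 53.9% to 85.9%, from 52.9% to 30.3% and from 59.6% to 40.9% in the same order. The TMM factors were 0.817 to 0.987 on WD and 0.929 to 1.31 on CDA-HFD. *Mttp*, *Sar1b* and, in WT livers, *Tm6sf2*, *Mia2* and *Sort1* kept their calls between the diets under that scaling, with *Mttp* at -1.01 and *Sar1b* at -0.81 in WT livers.

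Over the 20 livers the members fell into patterns that are given as a description, since livers of a group share their diet and vector. *Mttp* and *Sar1b* had r = 0.978 in log2 CPM, and 0.848 after group means were removed. *P4hb* and *Surf4* had 0.817 and 0.952. *Sar1a* had no r above 0.234 with any member over the 20 livers. After group means were removed, its r ran from -0.404 with *Sort1* to 0.547 with *Surf4*. Over the 20 livers, *Sort1* was negative with every member but *Sar1a*, from -0.525 with *P4hb* to -0.927 with *Mia2*.

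**Figure D5:**
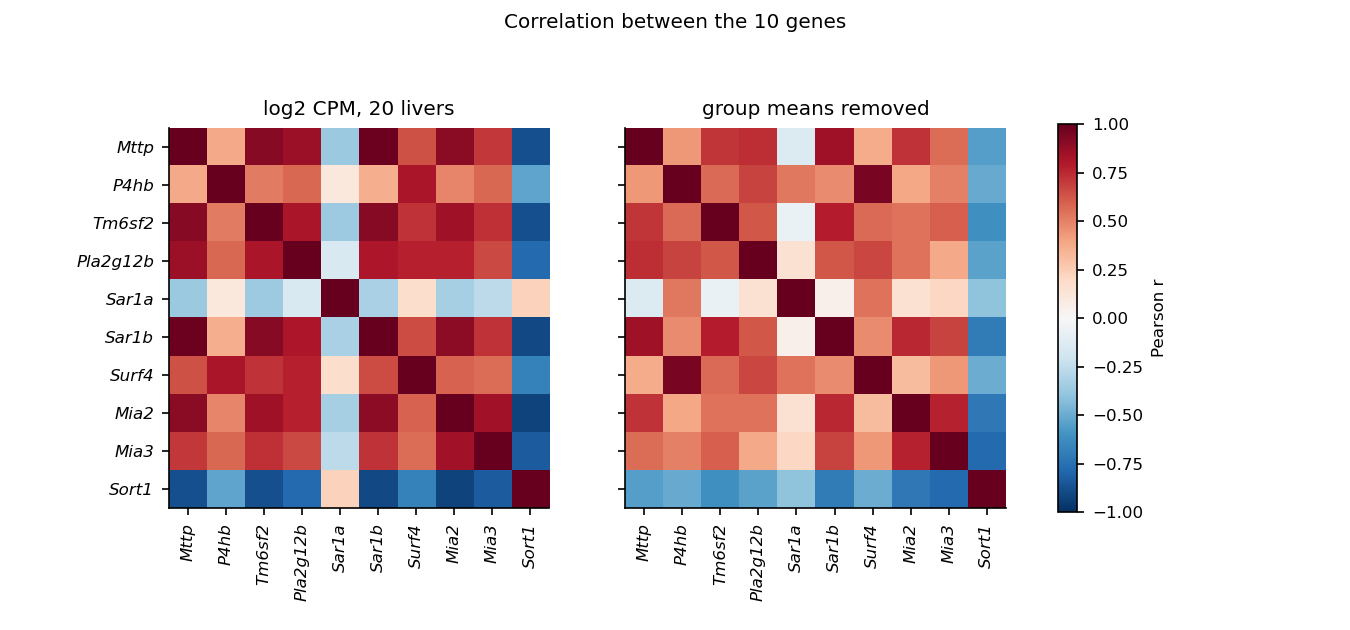
Pearson r between the 10 genes over 20 livers, in log2 CPM (left) and after the mean of each group was removed (right), with color from -1 to 1. *Sort1* is negative with every other gene in both panels, except *Sar1a* on the left, and *P4hb* with *Surf4* is the closest pair on the right at 0.952.

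Among 10819 other genes, those most like each member over the 20 livers were the following by Pearson r of log2 CPM. *Mttp* was closest to *Scp2*, which binds sterols and branched fatty acids in peroxisomes (r = 0.989), *Cpn1* (0.989) and *Paqr9* (0.983). *Sar1b* was closest to *Pcx*, pyruvate carboxylase (0.985), *Pygl*, liver glycogen phosphorylase (0.983), and *Pex7*, a peroxisomal import receptor (0.982). *P4hb* was closest to *Rpn2*, *Pdia6* and *Canx*, which act on proteins in the ER (0.854, 0.836 and 0.832), and *Surf4* to *Ufc1*, *Slc35b1* and *Snd1* (0.927, 0.897 and 0.897). *Sar1a* was closest to *Stt3a*, a subunit of the oligosaccharyltransferase (0.791), *Morf4l2* (0.752) and *Gfpt1* (0.737). *Mia2* was closest to *Ceacam1* (0.976), *Gstz1* (0.972) and *Cyp2j5* (0.971), and *Mia3* to *Tpcn1* (0.938), *Sec16b* (0.931) and *Dcaf11* (0.929). *Tm6sf2* was closest to *Cyb5b* (0.955), *Pebp1* (0.951) and *Wdr18* (0.945), and *Pla2g12b* to *Mrps12* (0.947), *Eefsec* (0.934) and *Vps25* (0.932). *Sort1* was closest to *Mapk3* (0.961), the lectin receptor *Cd22* (0.960) and *Tmem106a* (0.955). *Cd22* was at 3.42 and 3.57 CPM in WT and KO livers on WD and 10.6 and 7.10 CPM on CDA-HFD.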

How the data were processed

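RNA had been extracted from 20 mouse livers and sequenced, with 5 livers per group by their labels. The authors deposited raw read counts per gene symbol, with no normalization. Entries in the form htseq-count writes for unassigned reads held 50.3 to 57.0% of all reads tallied and entered no fit. The submitters' processing notes name mm10, but the aligner and counter are not given in the sources used here. The labels name a directional kit and the paper another kit, so whether counting used the strand is unknown. Mapping was not repeated.

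The fits were made with edgeR 4.0.16 under R 4.3.3 (filterByExpr, TMM, quasi-likelihood F test, Benjamini-Hochberg adjustment over all genes tested, threshold 0.05), within the 10 livers compared or, for the interaction, over all 20. All adjusted p-values are from it unless DESeq2 is named. Single genes were also compared by exact two-sided permutation of log2 CPM (prior count 2, 252 splits). CPM in the text used TMM over 20 livers, and lengths came from GENCODE M21 exons (GRCm38). Figures were drawn with matplotlib 3.10.9. The edgeR fit was tested on simulated data. Depth was 11697049 to 16827147 reads on genes per liver, and low counts limit precision for *Cideb*.

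Members, lists and tests were chosen with earlier results of these data known. The lists were compiled by hand, and named genes were the 10 members, up to 3 genes with the smallest adjusted p per list and comparison, the 3 genes most correlated with each member (mean log2 CPM of at least 2, no predicted genes), and *Cideb*. *Apob* was named as the denominator of a ratio. For each comparison, the counts of all genes and of members past the adjusted threshold were recomputed under other settings. These were DESeq2 1.42.0, RLE size factors, library size only, no filter and a minimum of 10 counts per library. The others were all 20 libraries fitted together, a replicate block and each liver left out. Counts for the lists, the markers and genes without overlap were not recomputed in these ways. The exception was the lists and markers, refitted without the KO CDA-HFD liver that stood apart. The labels name no litter or cage, so p-values measure the spread between these livers. Values of 2 genes that the rule would name are not reported here.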

Additional observations from a re-analysis of the deposited data

Results flagged for a closer look

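Among 40 sets of 5 livers (10 genes in 4 groups), 3 held a liver far from the rest by Dixon's gap ratio (above 0.71), where chance flags 5% of sets, or 2 here. *Mttp* in WT WD liver 1 was at 438 CPM against 514 to 524 CPM in the others (gap ratio 0.884). *Mttp* in KO CDA-HFD liver 5 was at 156 CPM against 302 to 341 CPM (0.791), and *Mia3* in the same liver at 291 CPM against 363 to 389 CPM (0.732). The fits without KO liver 5 are given with the results above.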

How the results depend on the processing

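The labels number the livers 1 to 5 in each group, but livers with the same number did not deviate together across all numbers (r of residuals from -0.484 to 0.445, where only number 4 was above 0.3 in all 4 comparisons), and the replicate block gave 2 genes over the whole table for KO against WT on WD in place of 12 and 63 for the interaction in place of 99, with the member counts unchanged at 0, 3, 7, 2 and 0. For KO against WT on WD, DESeq2 called 164 genes, the fit without a filter 38, all 20 libraries in 1 fit 26, and fits leaving out a liver 1 to 33. For KO against WT on CDA-HFD the whole table gave 2664 genes, 1709 with library size only, 4144 with DESeq2, 4170 with all 20 libraries and 709 to 7201 leaving out a liver. The members called there were 0 with library size only, 5 with DESeq2, 5 with all 20 libraries (*Mttp* and *Mia2* added in both) and 0 to 6 leaving out a liver. Between the diets in KO livers, 2792 genes became 4476 with all 20 libraries and 1568 to 2881 leaving out a liver, with 2 to 3 members. In WT livers, 7 to 9 members passed leaving out a liver. The interaction gave 44 genes with library size only, 434 with DESeq2, 52 with no filter and 35 to 2138 leaving out a liver. Its members were 1 with DESeq2 and 0 to 6 leaving out a liver. For KO against WT on CDA-HFD, the diets in KO livers (all genes) and the interaction, the highest count came without KO CDA-HFD liver 5. For KO against WT on WD it came without WT WD liver 3, and for members between the diets in WT livers without WT WD liver 1. The list counts and ratios without KO liver 5 were added after seeing the data.

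Directions turned only for differences that had not passed in edgeR with all livers and TMM, although *P4hb* and *Surf4* between the diets in WT livers passed with DESeq2. With library size only, *Surf4* was at -0.0127 for KO against WT on WD, -0.12 for the same on CDA-HFD, 0.21 and 0.10 for the diets in WT and KO livers and -0.10 in the interaction, *P4hb* at 0.14 for the diets in WT livers, and *Sar1a* at 0.21 and *Mia2* at 0.0079 for the diets in KO livers. Leaving out a liver gave -0.0212 to 0.0368 for *Surf4* on WD and -0.0049 to 0.0986 for *Mia3* between the diets in KO livers. RLE size factors and a minimum of 10 counts changed no count of members by over 1.5 times.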
